A study of Mus musculus with 27 samples.

Results

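Fatty acid oxidation was followed through 30 genes, chosen by name: every row of the deposited count table whose gene name was on a list of the enzymes, carriers and regulators that break down fatty acids in mitochondria and peroxisomes. All 30 were among the 29872 genes of the table. Of these, 29 had enough counts to be tested, together with 14589 genes in all, and Ppara did not. The rule itself uses no measured value, though the list was drawn up with earlier results of these data known.

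The data are poly(A) RNA sequencing libraries of macrophages that were differentiated from mouse bone marrow for 5 days with 10% L-cell conditioned medium and 20% serum. The donors were male mice aged 8 to 10 weeks. Wild-type cells (12 libraries, 3 per treatment) are given in the labels as C57BL/6 with LysM-Cre+/+; GRIP1wt/wt. The titles say BL6, a name that does not tell whether the controls carry Cre. Knockout cells (15 libraries) were LysM-Cre+/+; GRIP1fl/fl: Cre made from the LysM (Lyz2) locus of myeloid cells deletes a floxed part of Ncoa2, which encodes GRIP1, a coregulator of the glucocorticoid receptor and other transcription factors. Cells of each genotype received vehicle, interleukin 4 (IL4, 10 ng/ml), corticosterone (500 nM) or dexamethasone (100 nM) for 24 h. The knockout groups held 4 libraries each, except for IL4 with 3. Whether the libraries of a group are different animals is not said in the labels. The p-values therefore cover only library-to-library spread, and this may be technical.

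Fatty acids enter the pathway as acyl-CoA, made by acyl-CoA synthetases. Long chains cross into mitochondria as carnitine esters and are then shortened by a repeated cycle of dehydrogenation, hydration, a second oxidation and thiolysis. The electrons of the first step pass through the electron transfer flavoprotein to the respiratory chain. Peroxisomes run a similar cycle on very long and branched chains. PPAR receptors and PGC-1 coactivators switch many of these genes on, and macrophages activated by IL4 are known for oxidising fatty acids.

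Libraries held 20162729 to 48023102 counts in genes. Ncoa2 was at 55.7 to 93.4 CPM (counts scaled to library size, per 1000000) in wild-type and 16.1 to 26.0 CPM in knockout libraries, counted over the whole gene, the floxed part and the rest together. The 8 macrophage markers were all at 1 CPM or more in every group, with a summed level of 5870 to 7309 CPM. Of 5 adipocyte markers in the table none reached 1 CPM, and their sum was at most 0.809 CPM, with Cidec at 0 in 6 of the 8 groups. Markers of B cells summed to 1.98 to 8.13 CPM, of dendritic cells to 0.947 to 9.89 CPM, and of T and NK cells to at most 0.681 CPM. Markers of stromal cells summed to 160 to 819 CPM in wild-type and 11.3 to 46.6 CPM in knockout libraries, and neutrophil markers to 49.1 to 348 and 6.18 to 17.0 CPM. Arg1, a gene that IL4 induces, was at 67.1, 117, 78.4 and 68.0 CPM in 4 libraries that had received no IL4 (wild-type dexamethasone 1, knockout vehicle 2 and 3, knockout dexamethasone 2), against at most 12.2 CPM in the others without IL4. Knockout IL4 library 4 stood apart from its group in several members, as given below. Since these are bulk libraries, fewer cells that express a gene and less RNA per cell cannot be told apart.

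Levels were compared between genes only per kilobase of annotated exon. That length joins the exons of all annotated transcripts of a gene, from 1164 bases in Etfb to 11521 in Acox3. It can differ from the length of the transcript present, so the order depends on the annotation. In wild-type cells with vehicle the highest was Hsd17b4, the peroxisomal D-bifunctional protein, at 68.9 ± 2.09 CPM per kb (SD, n = 3), above every other member in each library. Acsl5 (51.8 ± 1.99), Acadl (48.5 ± 2.27) and Etfa (46.8 ± 2.50 CPM per kb) followed. Acsl5 overlapped with Acadl and Acadl with Etfa, while Etfa lay above the next gene, Acaa2, without overlap. The carnitine gate Cpt1a was at 26.5 ± 1.32 CPM per kb, overlapping with Acadvl (27.8 ± 2.20) and Acaa1a (26.2 ± 2.09). At the low end were Hadhb at 4.40 ± 0.177, Ppargc1b at 1.28 ± 0.0787 and Ehhadh at 0.957 ± 0.0981 CPM per kb, the last of which overlapped with no other member. Ppara, the nuclear receptor that drives this pathway in liver, was nearly without counts. Wild-type vehicle libraries had 0.0365, 0 and 0.0342 CPM of it, and all 6 IL4 libraries had 0. In knockout cells it was 0.0387, 0, 0.0399 and 0 CPM with vehicle. With corticosterone it was 0.0378, 0 and 0.0687 CPM in wild type and 0, 0, 0 and 0 CPM in knockout, and with dexamethasone 0.0995, 0 and 0.0370 and 0.0924, 0, 0 and 0.0311 CPM. These are 14 counts over all 27 libraries, at most 2 in any library, and no difference between groups was detectable at this depth. The related receptor Ppard was at 5.85 ± 0.102 CPM per kb.

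**Figure D1:**
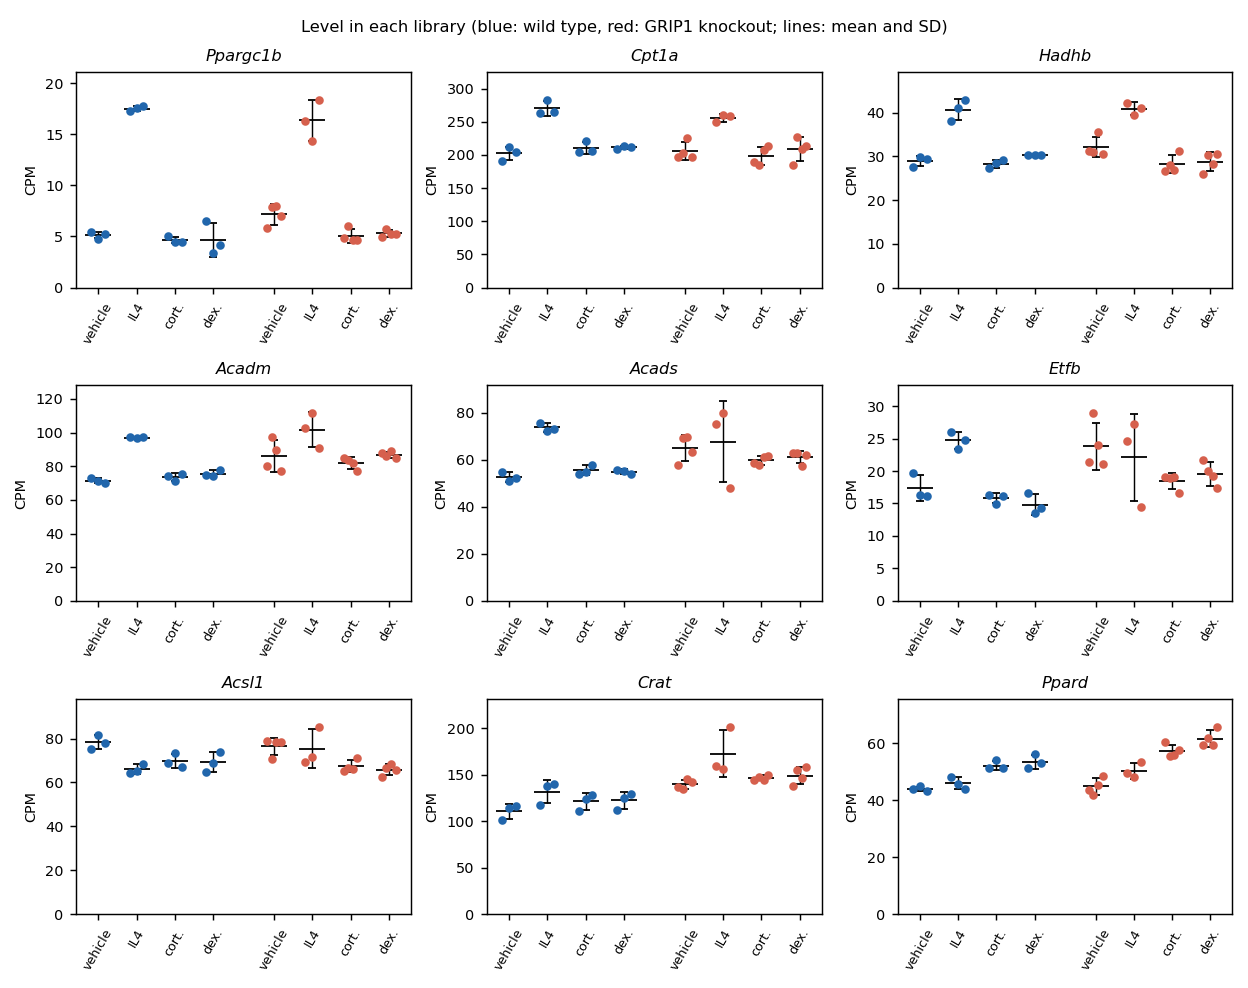
Level of 9 genes in each library, in CPM, for 4 treatments in wild-type (blue) and GRIP1 knockout (red) cells. Points are libraries and lines the mean and SD of a group. Ppargc1b lies between 14.4 and 18.3 CPM in every library with IL4 and at 8.00 CPM or below elsewhere, and 1 knockout IL4 library lies far below the other 2 in Acads and Etfb.

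IL4 raised 14 and lowered 3 of the 29 tested members in wild-type cells (edgeR, adjusted p under 0.05, which is what called means from here on). The background was 14.8% of all genes called higher and 15.3% called lower. The rises were modest apart from that of Ppargc1b: the median log2 fold change of the tested members was 0.20, beside −0.01 over all genes. The summed level of the 30 members was 2534 ± 46.1 CPM with IL4 and 2235 ± 19.0 CPM with vehicle (SD, n = 3). The rises lay in the mitochondrial steps, in 1 carnitine palmitoyltransferase and in the coactivator. The falls were those of 2 acyl-CoA synthetases and a peroxisomal enzyme.

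The coactivator showed the largest change. Ppargc1b encodes PGC-1 beta, which raises mitochondrial and fatty acid oxidation genes together with nuclear receptors. It was at 5.40, 4.78 and 5.19 CPM with vehicle and 17.3, 17.6 and 17.7 CPM with IL4 in the wild-type libraries. Each IL4 library was more than 3-fold above the vehicle libraries, and the 3 libraries of a group lay close together. The log2 fold change was 1.77 ± 0.16 (SE, adjusted p = 1.93e-08). Ppard was at 43.9, 44.8 and 43.2 CPM with vehicle and 48.1, 45.6 and 43.9 CPM with IL4. These values overlapped and were not called (0.06 ± 0.06, adjusted p = 0.515).

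Among the 4 acyl-CoA synthetases, which activate free fatty acids, none rose with IL4. Acsl1 was at 75.2, 81.5 and 78.2 CPM with vehicle and 64.4, 65.1 and 68.6 CPM with IL4. All 3 IL4 libraries were below all vehicle libraries, a fall by 0.25 on the log2 scale (adjusted p = 0.00887, edgeR). Acsl4, which prefers arachidonic acid, fell by 0.23 (adjusted p = 0.00379). Acsl3 was at 33.2 CPM with vehicle and 28.4 CPM with IL4 (−0.22 ± 0.10) and Acsl5 at 252 and 266 CPM (0.08 ± 0.06). Neither was called.

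In the carnitine shuttle, IL4 raised the outer gate and the acetyl transferase. Cpt1a (ENSMUSG00000024900, chr19:3322334-3385733, GRCm38), the outer carnitine palmitoyltransferase that limits entry into mitochondria, was at 192, 211 and 204 CPM with vehicle and 264, 283 and 264 CPM with IL4. The groups were well apart, with a log2 fold change of 0.42 ± 0.07 (adjusted p = 6.25e-05). Crat, which moves acetyl groups onto carnitine, rose by 0.25 ± 0.09 (adjusted p = 0.0303), a call lost in 5 of 14 alternative analyses. The inner-membrane carrier Slc25a20 (0.08 ± 0.06) and the inner transferase Cpt2 (0.13 ± 0.09) were not called.

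Of the 4 acyl-CoA dehydrogenases, which take the first step of each cycle and differ in chain length, 3 rose. Acadm, for medium chains, was at 73.0, 71.1 and 69.9 CPM with vehicle and 97.2, 96.9 and 97.1 CPM with IL4. The IL4 libraries were nearly identical and all above the vehicle libraries (0.44 ± 0.07, adjusted p = 3.36e-05, edgeR). Acads, for short chains, was at 55.0, 50.9 and 52.3 CPM with vehicle and 75.8, 72.4 and 73.3 CPM with IL4, again with no overlap (0.49 ± 0.11, adjusted p = 0.00143). Acadl, for long chains, rose by 0.20 ± 0.06. Acadvl, for very long chains, was at 74.6 CPM with vehicle and 74.5 CPM with IL4. It shares 42.9% of its exon bases with Dvl2 on the other strand. A strand setting of the counting was not given in the sources used here.

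All 4 genes of the later mitochondrial steps rose. Hadha and Hadhb encode the 2 subunits of the trifunctional protein, which carries out the later steps on long chains. Hadhb was at 27.7, 29.9 and 29.4 CPM with vehicle and 38.1, 41.0 and 42.9 CPM with IL4. The groups were far apart relative to their spread (0.49 ± 0.07, adjusted p = 1.28e-05), and Hadha rose from 177 ± 5.08 to 232 ± 10.7 CPM (0.39 ± 0.05). Acaa2, the thiolase of the mitochondrial matrix, was at 49.7, 45.8 and 46.8 CPM with vehicle and 63.7, 64.8 and 69.9 CPM with IL4. It rose by 0.48 ± 0.09 without overlap (adjusted p = 0.000183), and Hadh, the dehydrogenase for shorter chains, by 0.28 ± 0.07.

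The electron transfer flavoprotein rose with both subunits and its oxidoreductase. Etfb, the beta subunit, was at 19.7, 16.3 and 16.1 CPM with vehicle and 26.0, 23.4 and 24.7 CPM with IL4. All IL4 libraries were above all vehicle libraries, of which the first was the highest (0.51 ± 0.15, adjusted p = 0.0132, edgeR). The call for Etfb was lost without vehicle library 2 or 3, and 58.2% of its exon bases lie in other annotated genes, Gm45233 and Mir7051, on the same strand. Etfa, the alpha subunit, rose by 0.39 ± 0.09 and Etfdh, which hands the electrons to ubiquinone, by 0.28 ± 0.05. Of the enzymes that handle double bonds, the dienoyl-CoA reductase Decr1 rose by 0.38 ± 0.09, while the isomerases Eci1 (0.27 ± 0.12) and Eci2 (−0.06 ± 0.06) were not called.

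Of the 4 peroxisomal members 1 was called, a fall. Ehhadh, the L-bifunctional enzyme, went from 2.85 ± 0.293 to 1.68 ± 0.245 CPM, a fall by 0.77 on the log2 scale (adjusted p = 0.000401). It lies under the 5 CPM set for named genes and was chosen after its values were seen. The oxidase Acox3 (0.19 ± 0.10), Hsd17b4 (−0.05 ± 0.08) and the thiolase Acaa1a (−0.12 ± 0.19) were not called. Acaa1a has a near-identical copy, Acaa1b, so its counts are less certain. The mitochondrial thioesterase Acot2, which releases free fatty acids from acyl-CoA and has the close copy Acot1, was not called either (−0.21 ± 0.13). With the replicate number as a block, which pairs the wild-type libraries, 20 members were called, and 5827 of all genes in place of 4388. Acox3 (adjusted p = 0.00935, edgeR) and Eci1 (0.00535) then passed as higher and Acsl3 (0.0157) as lower.

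**Figure D2:**
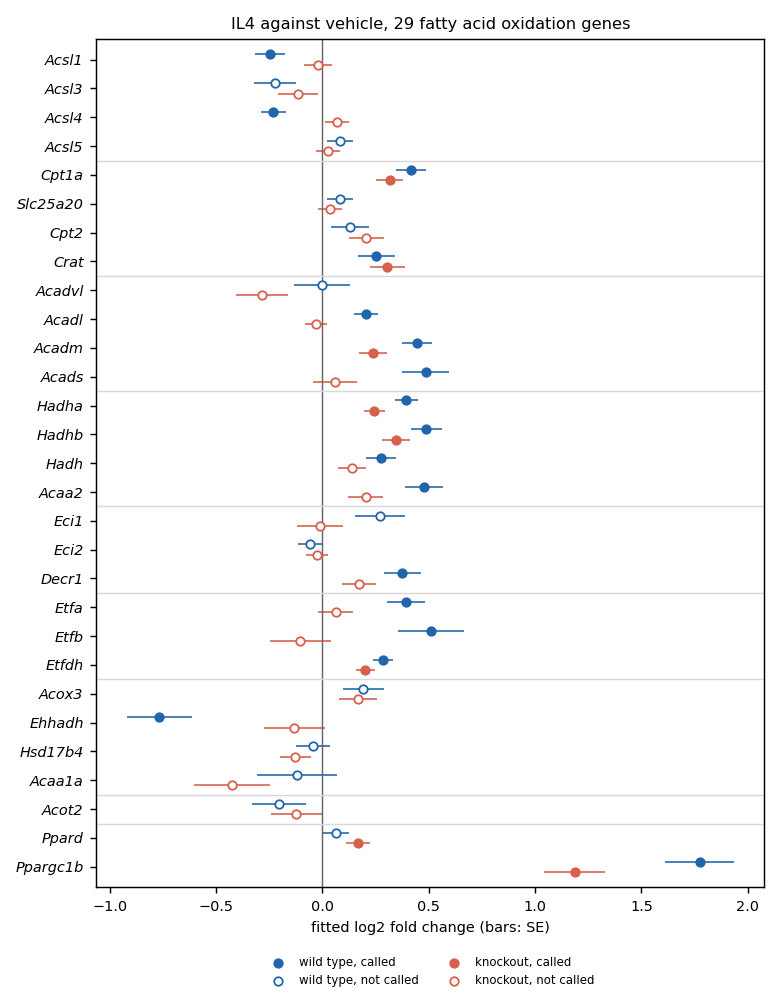
Fitted log2 fold change of IL4 against vehicle for the 29 tested genes, grouped by role from the synthetases (top) to the regulators (bottom), in wild-type (blue) and knockout (red) cells. Bars are SE, and filled points are called at an adjusted p under 0.05. Ppargc1b is the largest in both genotypes, and most mitochondrial genes lie to the right of 0 in wild type.

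Of the endothelial markers, Vwf and Pecam1 rose with IL4 and the others did not. The summed level, carried by Vwf and Pecam1, was 73.1 to 98.4 CPM with vehicle and 253 to 326 CPM with IL4 in wild type. Kdr was lower, at 8.44 to 10.9 CPM with vehicle and 4.77 to 5.54 CPM with IL4. Cdh5 was at 3.94 to 4.30 CPM with vehicle and 2.25 to 3.96 CPM with IL4, and Tek and Emcn were at 1.40 CPM or below in both. The part of endothelial cells in the rise of the oxidation genes was not tested. Within the wild-type libraries all 17 calls held without the libraries numbered 1, which were the richest in stromal markers.

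Promoters were read to see whether the genes that rose together share letters near their start. RefSeq windows (GRCm38.p6, 250 bases before to 50 after the start) were found for 25 of the 30 members, in 26 windows. Ppargc1b, Crat, Acaa2, Decr1 and Hsd17b4 had no window and were not read. Hadha and Hadhb are shown because they lie head to head on opposite strands of chromosome 5. Their RefSeq starts, at 30154980 and 30155253, are 273 bases apart, and both windows hold the same 228 bases, in capitals. The annotation used for exon lengths starts them closer together, at 30155162 and 30155248, so part of the Hadha stretch lies within the gene there. Acadm, Etfa and Slc25a20 are shown because their windows hold a match, in capitals, to a site type of the receptors that act on this pathway. Each is given 5′ to 3′ on its gene's strand, from 250 bases before the start to 30 bases after it.
Hadha, chr5:30154951-30155230, minus strand: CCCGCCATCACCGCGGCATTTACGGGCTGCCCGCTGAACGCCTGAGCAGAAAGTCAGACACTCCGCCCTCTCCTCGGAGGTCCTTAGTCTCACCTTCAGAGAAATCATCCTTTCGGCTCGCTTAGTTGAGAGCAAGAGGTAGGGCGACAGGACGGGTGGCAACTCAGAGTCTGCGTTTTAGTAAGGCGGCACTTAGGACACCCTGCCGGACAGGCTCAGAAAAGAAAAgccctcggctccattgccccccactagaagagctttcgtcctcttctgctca
Hadhb, chr5:30155003-30155282, plus strand: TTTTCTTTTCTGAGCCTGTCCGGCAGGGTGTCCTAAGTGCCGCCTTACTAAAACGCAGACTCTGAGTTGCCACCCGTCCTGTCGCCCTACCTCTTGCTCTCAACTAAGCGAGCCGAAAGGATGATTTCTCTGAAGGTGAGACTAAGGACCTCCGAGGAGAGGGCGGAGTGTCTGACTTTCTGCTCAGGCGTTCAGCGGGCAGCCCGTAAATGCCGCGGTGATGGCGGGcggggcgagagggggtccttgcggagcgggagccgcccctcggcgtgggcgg
Acadm, chr3:153944614-153944893, minus strand: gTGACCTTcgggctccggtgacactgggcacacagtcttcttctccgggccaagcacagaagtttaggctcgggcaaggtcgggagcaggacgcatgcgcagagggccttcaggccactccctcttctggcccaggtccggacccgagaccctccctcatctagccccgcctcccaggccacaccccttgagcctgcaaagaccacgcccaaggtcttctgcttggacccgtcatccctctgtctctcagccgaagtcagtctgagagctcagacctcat
Etfa, chr9:55512214-55512493, minus strand: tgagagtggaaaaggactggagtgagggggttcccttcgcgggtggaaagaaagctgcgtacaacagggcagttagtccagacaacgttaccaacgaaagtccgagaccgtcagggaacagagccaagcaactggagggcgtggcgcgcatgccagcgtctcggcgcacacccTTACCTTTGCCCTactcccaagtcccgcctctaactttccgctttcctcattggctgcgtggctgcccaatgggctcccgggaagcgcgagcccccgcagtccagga
Slc25a20, chr9:108661886-108662165, plus strand: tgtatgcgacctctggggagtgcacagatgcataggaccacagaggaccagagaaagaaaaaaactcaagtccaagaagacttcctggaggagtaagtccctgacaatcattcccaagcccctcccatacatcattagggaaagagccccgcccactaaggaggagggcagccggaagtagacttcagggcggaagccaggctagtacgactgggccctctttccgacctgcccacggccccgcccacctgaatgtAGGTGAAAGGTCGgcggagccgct

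The DR1 type bound by PPAR (AGGTCANAGGTCA, up to 2 mismatches, both strands) was found in 2 of 26 member windows (7.69%) and in 3.86% of all 32841 windows of this length. The 2 were Etfa, from 77 to 65 bases before its start, and Slc25a20, from base 7 to base 19 after it. The type bound by the estrogen-related receptors (AAGGTCA, which overlaps the repeat unit of DR1) was found in Acadm alone, 249 to 243 bases before its start, against 4.72% of all windows. Of these 3 genes, Acadm and Etfa rose with IL4 and Slc25a20 was not called. The STAT6 type (TTCNNNNGAA) was in 0 of 26 member windows and 6.95% of all, and the glucocorticoid receptor core (ACANNNTGT) in 1, that of Hadh, and 6.85% of all. A match describes letters in the window and not a bound site. Ppargc1b, with the largest rise, had no window, so these counts do not cover it.

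In knockout cells IL4 raised 8 and lowered 0 of the 29 tested members, where 14.5% of all genes were called higher and 26.5% in either direction. The median log2 fold change was 0.06, beside 0.01 over all genes. Ppargc1b was at 5.81, 7.87, 8.00 and 7.01 CPM with vehicle and 16.3, 14.4 and 18.3 CPM with IL4. The groups were again far apart (1.19 ± 0.15, adjusted p = 2.41e-06), with a vehicle level above that of wild type. Cpt1a was at 197, 203, 226 and 197 CPM with vehicle and 249, 259.6 and 258 CPM with IL4, without overlap (0.32 ± 0.07, adjusted p = 0.00097). Hadhb was at 31.2, 31.1, 35.7 and 30.6 CPM with vehicle and 42.2, 39.4 and 41.1 CPM with IL4. All IL4 libraries were above all vehicle libraries (0.35 ± 0.07, adjusted p = 0.000508, edgeR). The other calls were rises of Crat (0.31 ± 0.08), Hadha (0.24 ± 0.05), Acadm (0.24 ± 0.07), Etfdh (0.20 ± 0.04) and Ppard (0.17 ± 0.06).

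One of the 3 knockout IL4 libraries stood apart in other members. Acads was at 57.8, 69.5, 69.8 and 63.3 CPM with vehicle and 75.4, 79.8 and 48.1 CPM with IL4, and Etfb at 21.4, 28.9, 23.9 and 21.1 CPM with vehicle and 24.7, 27.2 and 14.5 CPM with IL4. In both, the third value with IL4, that of library 4, was below every vehicle library. Acaa2 was at 51.8, 64.6, 62.8 and 53.9 CPM with vehicle and 73.2, 73.1 and 54.9 CPM with IL4, and Acadm at 80.2, 97.6, 89.8 and 77.1 CPM with vehicle and 103, 111 and 91.1 CPM with IL4. Here too library 4 was the lowest with IL4 and lay among the vehicle libraries. With IL4, Acaa1a was at 115, 112 and 47.4 CPM and Acadvl at 76.6, 76.0 and 41.5 CPM, library 4 last. Acsl1 was at 78.7, 70.6, 78.4 and 78.4 CPM with vehicle and 69.2, 71.6 and 85.4 CPM with IL4, and here library 4 was the highest. Ppard was at 43.6, 41.7, 45.3 and 48.5 CPM with vehicle and 49.3, 48.1 and 53.4 CPM with IL4, and the groups overlapped. Without library 4, 10 members were called, all higher: Acads (0.25), Acaa2 (0.33), Decr1 (0.25) and Etfa (0.21) were then called, and Crat (0.18, adjusted p = 0.107) and Ppard (0.12, adjusted p = 0.173) no longer were. Without IL4 library 1 or 2, Acadvl (−0.43 and −0.43) and Acaa1a (−0.63 and −0.61) were called lower, and library 4 then made up 1 of the 2 IL4 libraries. When the fit held just these 2 groups, 3 members were called. With the replicate number as a block, which pairs these libraries, Cpt2 (adjusted p = 0.0409, edgeR), Acaa2 (0.0300) and Acox3 (0.0221) were called higher as well. Of all genes 5219 were then called in place of 3873.

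The difference between the IL4 responses of the genotypes was tested directly. By edgeR 0 of the 29 tested members were called, where 0.0274% of all genes were, and 10 members (34.5%) had an unadjusted p under 0.05, as had 9.07% of all genes. DESeq2 called 1 member, Acsl4 (0.30 ± 0.08 by edgeR, knockout minus wild type, adjusted p = 0.216). Ppargc1b had a difference of −0.59 ± 0.22 (adjusted p = 0.393), Etfb of −0.62 ± 0.21 (adjusted p = 0.348) and Acads of −0.43 ± 0.15 (adjusted p = 0.365). Without knockout IL4 library 4 these were −0.68, −0.39 and −0.23, none of them called.

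The glucocorticoids changed few members in wild-type cells. Corticosterone raised 2 and lowered 1, with 3.48% of all genes called higher and 2.46% lower, and dexamethasone raised 2 and lowered 1, with 7.66% and 6.03%. The member median was −0.01 for both, beside 0.01 over all genes. Both comparisons use the same vehicle libraries. Ppard was at 51.1, 53.9 and 51.2 CPM with corticosterone and 51.1, 56.1 and 53.1 CPM with dexamethasone, against 43.2 to 44.8 CPM with vehicle. Every treated library was above every vehicle library (0.24 ± 0.06, adjusted p = 0.0156, and 0.28 ± 0.06, adjusted p = 0.00240). Acadl rose by 0.22 ± 0.06 and 0.31 ± 0.06 (adjusted p = 0.0173 and 0.000268). Acsl3, a synthetase of the endoplasmic reticulum and lipid droplets, fell by 0.40 and 0.39 (adjusted p = 0.0152 and 0.0103). The 3 calls with corticosterone were lost together without vehicle library 3, without corticosterone library 2, or without the wild-type libraries numbered 1, and 1, Acsl3, held without vehicle library 1. The calls of Ppard and Acadl with dexamethasone were kept in these alternatives, and that of Acsl3 was lost without the libraries numbered 1 or without dexamethasone library 1.

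Acadl was the 1 gene raised by IL4 that was also called higher with a glucocorticoid in wild type. The others with a value per library are given next. Ppargc1b was at 5.03, 4.45 and 4.50 CPM with corticosterone and 6.52, 3.35 and 4.14 CPM with dexamethasone. The highest of these was dexamethasone library 1, which was also high in Arg1. Cpt1a was at 204, 222 and 206 CPM with corticosterone and 209, 214 and 212 CPM with dexamethasone, Hadhb at 27.4, 28.5 and 29.1 CPM with corticosterone and 30.4, 30.3 and 30.4 CPM with dexamethasone, and Acaa2 at 49.5, 51.9 and 54.2 CPM with corticosterone and 54.1, 52.6 and 56.4 CPM with dexamethasone. None of these was called. Acadm was at 74.0, 71.4 and 75.6 CPM with corticosterone and 74.5, 74.5 and 77.9 CPM with dexamethasone, Acads at 53.9, 54.9 and 58.0 CPM with corticosterone and 55.6, 55.5 and 53.8 CPM with dexamethasone, and Etfb at 16.3, 14.9 and 16.2 CPM with corticosterone and 16.6, 13.5 and 14.3 CPM with dexamethasone. They were not called either. Acsl1 was at 69.0, 73.5 and 67.1 CPM with corticosterone and 64.7, 69.0 and 74.0 CPM with dexamethasone, below all vehicle libraries but not called (−0.16 ± 0.07, adjusted p = 0.218, and −0.18 ± 0.07, adjusted p = 0.105). With the replicate number as a block the fall with dexamethasone was called (adjusted p = 0.0371). Ppargc1b was called lower with dexamethasone without the 4 Arg1-high libraries (−0.46, adjusted p = 0.0277), as Ehhadh was called higher (0.45), making 5 calls in place of 3.

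The 2 glucocorticoids were compared with each other in wild type. Of the 29 tested members 0 were called by edgeR, where 0.185% of all genes were, and 0 had an unadjusted p under 0.05. DESeq2 called 0 members as well. Dexamethasone minus corticosterone lay between −0.10 (Etfb) and 0.13 (Ehhadh) on the log2 scale, with a median of 0.000462. For Ppard the difference was 0.04 ± 0.06, with a 95% interval from −0.08 to 0.16.

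IL4 was compared with dexamethasone directly in wild type. Of the members 11 were higher with IL4 and 4 lower, with 15.0% and 16.7% of all genes called. Ppargc1b was higher by 1.92 ± 0.16, Etfb by 0.74 ± 0.16, Acads by 0.43 ± 0.11, Hadhb by 0.42 ± 0.07, Etfa by 0.42 ± 0.09 and Hadha by 0.41 ± 0.05. Ppard (−0.22 ± 0.06), Acsl4 (−0.18 ± 0.06), Eci2 (−0.15 ± 0.06) and Ehhadh (−1.10 ± 0.15) were lower with IL4. The call of Eci2 held in none of the alternative analyses but the one with the replicate number as a block, which also called Hadh, Eci1 and Acox3 higher. That block called 6231 of all genes in place of 4619.

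In knockout cells corticosterone raised 1 and lowered 3 members (6.01% and 6.07% of all genes), and dexamethasone raised 3 and lowered 4 (9.10% and 9.29%). Ppard was at 60.2, 55.4, 55.9 and 57.6 CPM with corticosterone and 59.2, 61.8, 59.3 and 65.8 CPM with dexamethasone. All 8 were above the 41.7 to 48.5 CPM of the vehicle libraries (0.35 ± 0.05, adjusted p = 5.72e-05, and 0.46 ± 0.05, adjusted p = 7.82e-07). Ppargc1b was at 4.82, 6.00, 4.67 and 4.62 CPM and 4.94, 5.77, 5.21 and 5.25 CPM. It fell by 0.52 and 0.44 (adjusted p = 0.0159 and 0.0300), with 1 corticosterone library inside the vehicle range. Hadha fell by 0.20 and 0.21 (adjusted p = 0.00442 and 0.00164). Acsl1 was at 65.2, 66.4, 66.4 and 71.3 CPM and 62.6, 66.4, 68.6 and 65.7 CPM, and fell by 0.19 and 0.22 (adjusted p = 0.0465 and 0.0126). With dexamethasone Slc25a20 also fell by 0.19, Eci2 rose by 0.16 ± 0.05, and Ehhadh, named after its values were seen, by 0.39 ± 0.13. With dexamethasone the call of Ehhadh was kept in 7 of 16 alternative analyses, that of Eci2 in 11 and that of Slc25a20 in 13. The call of Acsl1 with corticosterone was kept in 8 of 16. The steroids were not tested against each other in knockout cells, and under some alternatives Slc25a20 and Ehhadh were called with corticosterone too.

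The other IL4-raised genes were again near or below the vehicle level of knockout cells. Cpt1a was at 189.7, 185, 207 and 213 CPM with corticosterone and 184, 227, 208 and 214 CPM with dexamethasone. Hadhb was at 26.7, 28.1, 26.9 and 31.2 CPM with corticosterone and 26.0, 30.4, 28.2 and 30.6 CPM with dexamethasone, with the estimates −0.19 ± 0.06 and −0.16 ± 0.06. Neither gene was called with either steroid. Acadm was at 84.8, 83.6, 81.8 and 77.1 CPM with corticosterone and 87.7, 86.2, 88.9 and 84.8 CPM with dexamethasone, and Acads at 58.6, 57.9, 61.4 and 61.8 CPM with corticosterone and 62.8, 63.0, 57.3 and 61.9 CPM with dexamethasone. Acaa2 was at 52.9, 57.1, 56.4 and 56.0 CPM with corticosterone and 56.4, 57.9, 59.6 and 61.1 CPM with dexamethasone, and Etfb at 19.1, 18.9, 19.1 and 16.7 CPM with corticosterone and 21.7, 20.0, 19.2 and 17.3 CPM with dexamethasone. None of the 4 was called. Without the 4 Arg1-high libraries the falls of Hadha (−0.16 and −0.17) and Ppargc1b (−0.37 and −0.33) were not called, and 2 members remained called with corticosterone (Ppard and Acsl1) and 3 with dexamethasone (Ppard, Acsl1 and Eci2). There were also 2 calls with corticosterone without vehicle library 3 or corticosterone library 3, and 4 with dexamethasone without dexamethasone library 1 or 3. With the replicate number as a block, 8 members were called with corticosterone in knockout cells in place of 4, the added ones being Acsl3, Hadhb, Etfb and Ehhadh. Of all genes 2974 were then called in place of 1762.

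The difference of the glucocorticoid responses between genotypes was called for 0 of the 29 tested members with corticosterone (0.0206% of all genes) and for 0 with dexamethasone (0.185% of all genes) by edgeR. At an unadjusted p under 0.05 there were 3 members (10.3%, beside 6.35% of all genes) and 4 members (13.8%, beside 6.03%). DESeq2 called 0 members for corticosterone and 1 for dexamethasone, Acadl. By edgeR the difference of Acadl was −0.25 ± 0.07 with corticosterone (adjusted p = 0.232) and −0.31 ± 0.07 with dexamethasone (adjusted p = 0.0942). Its level was 97.2 CPM with vehicle and 121 CPM with dexamethasone in wild type, and 119 and 119.6 CPM in knockout. The knockout level with vehicle was near the wild-type level with dexamethasone.

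**Figure D3:**
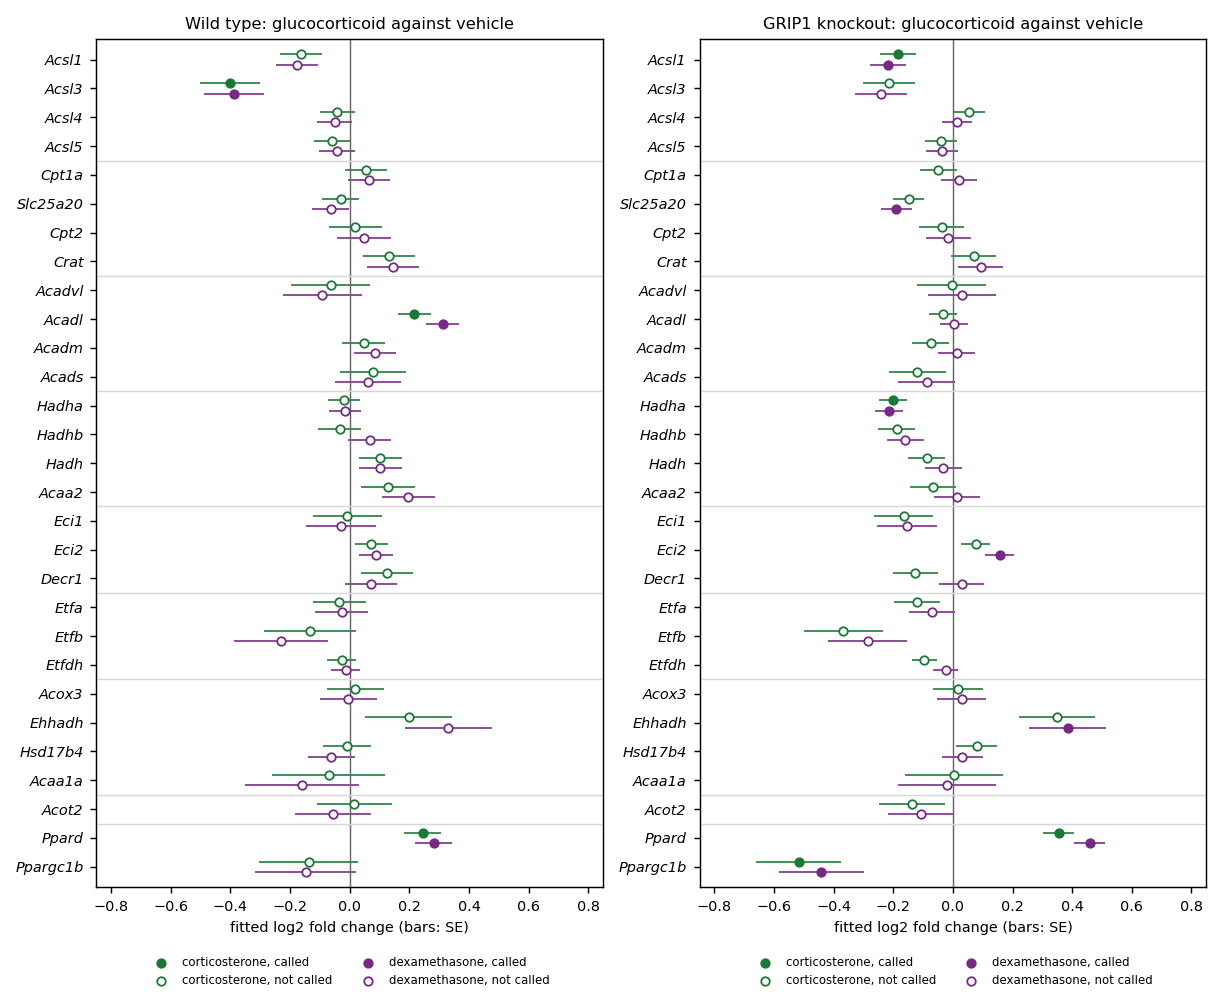
Fitted log2 fold change of corticosterone (green) and dexamethasone (purple) against vehicle for the 29 tested genes, in wild-type (left) and knockout (right) cells. Bars are SE, and filled points are called at an adjusted p under 0.05. Ppard lies to the right of 0 with both steroids in both genotypes, and Acadl is called in wild type and not in knockout.

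Knockout cells with vehicle had more of many of these transcripts than wild-type cells. Of the 29 tested members 13 were higher and 1, Acsl4, lower (−0.16 ± 0.06), where 8.47% of all genes were called higher and 10.3% lower. The member median was 0.16, beside 0.02 over all genes, and the summed level of the 30 members was 2474 ± 68.5 CPM (SD, n = 4) against 2235 ± 19.0 CPM. The largest were Ppargc1b (0.49 ± 0.15, adjusted p = 0.0258), Etfb (0.46 ± 0.15, adjusted p = 0.0281) and Eci1 (0.36 ± 0.11, adjusted p = 0.0189). Crat (0.33 ± 0.08, adjusted p = 0.00488) had 137, 135, 146 and 142 CPM in knockout and 102, 114 and 117 CPM in wild type, without overlap. Acads (0.30 ± 0.10), Acox3 (0.30 ± 0.09), Acadl (0.30 ± 0.05), Acaa2 (0.30 ± 0.08), Hadh (0.29 ± 0.07), Acadm (0.27 ± 0.07), Cpt2 (0.26 ± 0.08), Hadha (0.22 ± 0.05) and Etfdh (0.22 ± 0.04) were also higher. The calls of Crat, Acadl and Etfdh were kept in all 15 alternative analyses. Ppargc1b kept its call in 8, Cpt2 and Acsl4 in 7, Acads in 5 and the rest in 9 to 13. Cpt1a did not pass (0.02 ± 0.07, adjusted p = 0.884).

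Part of this difference moved with the libraries high in Arg1. Knockout vehicle libraries 2 and 3 had the higher values of Acadm (97.6 and 89.8 CPM, against 80.2 and 77.1 CPM in libraries 1 and 4), Acaa2 (64.6 and 62.8 against 51.8 and 53.9 CPM) and Hadh (77.8 and 78.2 against 63.0 and 67.9 CPM). Without the 4 Arg1-high libraries the knockout vehicle group held just libraries 1 and 4. In that fit 4 members were called: Acox3 (0.35), Crat (0.33), Acadl (0.27) and Etfdh (0.20). The part of the smaller group in the lost calls was not tested. Acadm was then at 0.14 (adjusted p = 0.223) and Ppargc1b at 0.32 (adjusted p = 0.118). Without wild-type vehicle library 1 there were 9 calls, without vehicle library 2 of either genotype 7, without knockout vehicle library 3, 8, and with only the 2 groups in the fit 6. Stromal and neutrophil markers were lower in every knockout group than in any wild-type group. Without the wild-type libraries numbered 1 there were 11 calls. The remaining wild-type vehicle libraries still held more of these markers than knockout. Col1a1 was at 120 and 94.2 CPM against 2.68 to 7.09 CPM, and S100a9 at 50.7 and 34.8 CPM against 1.24 to 3.20 CPM. The part of these cells in the difference was not tested.

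**Figure D4:**
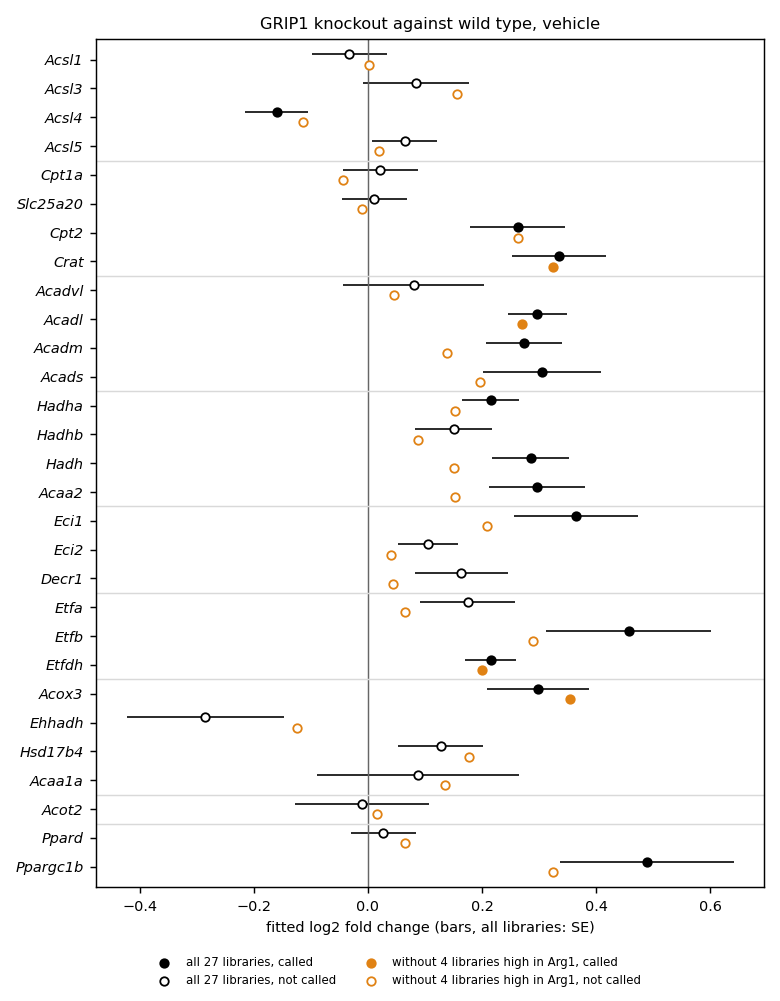
Fitted log2 fold change of knockout against wild type with vehicle for the 29 tested genes, from all 27 libraries (black, with SE) and without the 4 libraries high in Arg1 (orange). Filled points are called at an adjusted p under 0.05. The 13 genes called higher with all libraries fall to 4 without these libraries, and most estimates move towards 0. Without them the knockout vehicle group holds just libraries 1 and 4.

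The genotypes were also compared under each treatment. With IL4, 2 were higher in knockout cells and 0 lower, Crat (0.39 ± 0.09, adjusted p = 0.00487) and Cpt2 (0.34 ± 0.09, adjusted p = 0.0139), where 5.76% of all genes were called higher and 12.4% in either direction. Crat was at 118, 138 and 140.4 CPM in wild type and 159.7, 157 and 202 CPM in knockout, without overlap. Cpt2 lost its call without knockout IL4 library 4, both lost it without wild-type IL4 library 1, and 4 members were called without knockout IL4 library 1. With corticosterone 3 were higher and 0 lower, where 5.46% of all genes were higher and 14.4% called in either direction: Acox3 (0.30 ± 0.09, adjusted p = 0.0267), Crat (0.27 ± 0.08, adjusted p = 0.0249) and Etfdh (0.15 ± 0.04, adjusted p = 0.0276). All 3 calls were lost without wild-type corticosterone library 1 or 2 or knockout corticosterone library 4, and 5 members were called without wild-type corticosterone library 3. With dexamethasone 7 were higher and 0 lower, where 6.70% of all genes were higher and 17.2% called in either direction. Acox3 (0.33 ± 0.09) and Crat (0.28 ± 0.08) led them, followed by Hsd17b4 (0.22 ± 0.07), Etfdh (0.20 ± 0.04), Ppard (0.20 ± 0.06), Acadm (0.20 ± 0.07) and Eci2 (0.17 ± 0.05). Without the 4 Arg1-high libraries none of these 7 was called, and 2 others were, Eci1 (0.36) and Ppargc1b (0.46). That fit held wild-type dexamethasone libraries 2 and 3 and knockout libraries 1, 3 and 4. Over all alternatives the estimates of the 7 stayed between 0.15 (Eci2) and 0.41 (Acox3). Etfdh lost its call in that alternative alone (adjusted p = 0.0520, edgeR). Without wild-type dexamethasone library 1 or knockout dexamethasone library 4 there were 3 calls, and without wild-type library 2 or knockout library 1 or 3 there were 4.

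Crat was the 1 member called in all 4 comparisons of the genotypes. These share no libraries, but same-numbered wild-type libraries deviated together, so they are not independent repeats. Wild-type library 1 was the lowest in Crat under each treatment. Without the wild-type libraries numbered 1 its calls with corticosterone and dexamethasone were lost, and those with vehicle and IL4 were kept. With corticosterone Crat was at 111, 124 and 128 CPM in wild type and 144, 148, 144 and 149.9 CPM in knockout. With dexamethasone it was at 112, 125 and 129.8 CPM in wild type and 138, 155, 146 and 158 CPM in knockout. The lowest knockout library was above the highest wild-type library under each treatment. Of its exon bases 8.72% overlap genes on the other strand, Dolpp1 and Gm16323. Etfdh and Acox3 were called in 3 of the 4.

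Other genes of fatty acid use were counted in 4 lists, to be read beside the 14.8% of all genes called higher and 15.3% called lower with IL4 in wild type. Of 18 tested genes of other mitochondrial enzymes and carnitine handling, 6 rose and 1 fell with IL4 in wild type, among them the enoyl-CoA hydratase Echs1 (0.74 ± 0.10) and, as the fall, Slc25a29 (−0.80 ± 0.28), a carrier at under 1 CPM. Of 31 genes of other peroxisomal enzymes, transporters and assembly, 6 rose and 2 fell, led by Abcd2 (2.09 ± 0.35), a transporter of very long-chain acyl-CoA, and the assembly factor Pex26 (1.27 ± 0.10). Of 20 tested regulators and PPAR targets 5 rose and 0 fell, led by the nuclear receptor Pparg (1.77 ± 0.20) and the AMPK subunit Prkaa2 (1.66 ± 0.29). Of 11 tested genes of fatty acid supply 6 rose and 3 fell, led by the acetyl-CoA synthetase Acss1 (1.49 ± 0.18) and the monoglyceride lipase Mgll (1.17 ± 0.33). The list medians were 0.14, 0.00437, 0.11 and 0.33, beside −0.01 over all genes.

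In knockout cells the same lists had 4, 5, 4 and 4 rises and 1, 3, 2 and 2 falls with IL4, where 14.5% of all genes were called higher and 26.5% in either direction. There Pparg rose by 1.27 ± 0.18, Prkaa2 by 2.30 ± 0.27, Pex26 by 1.10 ± 0.09 and Acss1 by 0.75 ± 0.16. With corticosterone in wild type there were 1, 3, 3 and 1 rises and 0, 0, 0 and 1 falls (3.48% and 2.46% of all genes). With dexamethasone in wild type, the lists had 2, 5, 4 and 1 rises and 0, 0, 1 and 1 falls (7.66% and 6.03%). Pex13, a peroxisomal import protein, rose by 1.73 ± 0.05 and Abcd2 by 1.80 ± 0.35. The uncoupling protein Ucp2 rose by 0.55 ± 0.07, Acadsb by 0.32 ± 0.07, the fatty acid binding protein Fabp4 by 1.04 ± 0.20 and the triglyceride lipase Pnpla2 by 0.81 ± 0.12. The lipase inhibitor Angptl4 (−1.17 ± 0.25) and the lysosomal lipase Lipa (−0.42 ± 0.06) fell. In knockout against wild type with vehicle there were 7, 7, 0 and 2 rises and 2, 2, 4 and 3 falls (8.47% and 10.3%). Acaa1b, the near-identical copy of Acaa1a, was higher by 4.21 ± 0.48, Abcd2 by 1.89 ± 0.33 and Mgll by 1.29 ± 0.32. Knockout vehicle libraries 2 and 3 were high in Arg1, and Abcd2 and Mgll also rose with IL4 in wild type. The alternative analyses were read for the members and for all genes, and not for the genes of these lists. Pdk4 (−4.12 ± 0.80), a kinase that shuts pyruvate dehydrogenase, Cpt1c (−1.38 ± 0.48), Acacb (−0.77 ± 0.24), the fatty acid transporter Cd36 (−0.49 ± 0.13) and Acsbg1 (−1.92 ± 0.35) were lower. Pdk4 was at 3.79 ± 3.53 CPM in wild type and 0.217 ± 0.148 CPM in knockout (SD, n = 3 and 4), so that its wild-type spread was nearly as large as its level.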

How the data were processed

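The deposited table holds whole-number read counts per gene that the authors made, per the labels' protocols, from poly(A) libraries (directional kit, 50 bp paired reads). Per the submitters' processing notes the tools were fastp 0.23.2, STAR 2.7.0, featureCounts and edgeR 3.38.4, with build mm10. A strand setting was not given in the sources used here, so genes that overlap on opposite strands are less certain.

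From the counts, edgeR 4.0.16 (R 4.3.3) was run with TMM normalization and a robust quasi-likelihood F test on all 27 libraries and 8 groups. The filter (filterByExpr, minimum count 10) left 14589 of 29872 genes. The common biological coefficient of variation was 0.122. P-values were adjusted by Benjamini-Hochberg over all tested genes, and the call threshold was 0.05. The code was tested on simulated data. CPM use TMM-scaled totals, and a list's median is over its tested genes.

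The 30 members and all lists were chosen with earlier results of these data known. Values were given for up to 6 called members per comparison with the largest change and at least 5 CPM, and per library for those called with IL4 in wild type and for Ppargc1b, Cpt1a, Ppara, Ppard and Acsl1. Up to 2 called genes were named per other list. Alternatives were another normalization (RLE), no filter, the newer edgeR fit, DESeq2 1.42.0, only the groups compared, the replicate number as a block, leaving out each library, and leaving out the 4 libraries high in Arg1. Leaving out the wild-type libraries numbered 1 was added after seeing the data.

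The numbers come from the labels. Same-numbered libraries deviated together in every pair for the wild-type treatments (lowest correlation 0.193) and for IL4 and corticosterone in knockout cells (lowest 0.112), and were taken as paired there. They were not for dexamethasone in knockout cells (lowest 0.00519) or between genotypes. The main fit held no block, so its p-values ignore this pairing, which entered only through the alternative with the replicate number as a block.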

Additional observations from a re-analysis of the deposited data

Results flagged for a closer look

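In groups of 4 libraries, 1 library lay far from the other 3 in 6 of 87 tests of a gene in a group. Chance flags about 1 in 20 such groups. Acsl1 was at 70.6 CPM in knockout vehicle library 2, with the others at 78.4 to 78.7 CPM. Hadhb was at 35.7 CPM in knockout vehicle library 3, with the others at 30.6 to 31.2 CPM. Hsd17b4 was at 281 CPM in knockout vehicle library 4, with the others at 246 to 250 CPM. Etfb was at 16.7 CPM in knockout corticosterone library 4, with the others at 18.9 to 19.1 CPM. Ppargc1b was at 6.00 CPM in knockout corticosterone library 2, with the others at 4.62 to 4.82 CPM. Etfdh was at 61.1 CPM in knockout dexamethasone library 1, with the others at 58.7 to 58.9 CPM. Knockout vehicle libraries 2 and 3 were among those high in Arg1.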

How the results depend on the processing

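No estimate of a called gene changed sign under any alternative that was run. For IL4 against vehicle in wild type (17 members called, 16 to 17 with 1 library left out) and IL4 against dexamethasone (15, 12 to 16) the count stayed within 1.5 times under every alternative, and dexamethasone against corticosterone stayed at 0. The other counts moved as follows. Without the filter on low counts, 1 member in place of 3 was called for corticosterone in wild type, 4 in place of 7 for dexamethasone in knockout, and 3 in place of 7 for knockout against wild type with dexamethasone. When the fit held just the groups compared, 3 were called for IL4 in knockout (8), 4 for dexamethasone in knockout (7), and 6, 0, 5 and 4 for the genotypes under vehicle (14), IL4 (2), corticosterone (3) and dexamethasone (7). Without the 4 libraries high in Arg1, 5 were called for dexamethasone in wild type (3), 2 for corticosterone (4) and 3 for dexamethasone (7) in knockout, and 4 and 2 for knockout against wild type with vehicle (14) and dexamethasone (7). Without the wild-type libraries numbered 1, 0 were called for corticosterone in wild type (3), and 1, 0 and 3 for knockout against wild type with IL4 (2), corticosterone (3) and dexamethasone (7). DESeq2 called 7 for corticosterone in knockout (4) and 1 for the difference of the IL4 and of the dexamethasone responses (0 each). With 1 library left out, the counts ran from 0 to 2 for corticosterone and stayed at 3 for dexamethasone in wild type. In knockout they ran from 7 to 11 for IL4, 2 to 5 for corticosterone and 4 to 7 for dexamethasone. For knockout against wild type they ran from 7 to 14 under vehicle, 0 to 4 under IL4, 0 to 5 under corticosterone and 3 to 7 under dexamethasone. The cause of these moves was not tested.

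With the replicate number as a block, 8 members were called for corticosterone in knockout, where the numbers pair the libraries, and 6 for knockout against wild type with corticosterone, where they do not. It moved no other count of members by more than 1.5 times. Where the numbers pair the libraries it ended no call, and the calls it added are given with their results.

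Over all genes, the lowest and highest counts of called genes under the alternatives were 3493 and 5827 for IL4 in wild type (4388). There they were 486 and 1790 for corticosterone (866) and 1327 and 3225 for dexamethasone (1996). In knockout they were 1745 and 5219 for IL4 (3873), 941 and 2974 for corticosterone (1762) and 1789 and 4056 for dexamethasone (2684). For dexamethasone against corticosterone they were 10 and 137 (27), and for IL4 against dexamethasone 3561 and 6231 (4619). For knockout against wild type they were 1641 and 3109 under vehicle (2738), 616 and 2041 under IL4 (1802), 1057 and 2457 under corticosterone (2102) and 1378 and 2966 under dexamethasone (2512). For the differences of responses they were 0 and 95 for IL4 (4), 0 and 76 for corticosterone (3) and 3 and 81 for dexamethasone (27). In all other comparisons the highest count was the one with the replicate number as a block. Depth limits Ppara most, with at most 2 counts in a library.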
